A study of Chrysanthemum x morifolium with 12 samples.

Results

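The probes described here are those of a chrysanthemum oligonucleotide array whose hybridization signal became lower at each step from white petals to pale green petals, to dark green petals and to leaves. A probe was kept where its mean signal over the 12 arrays was at least 100 and where the authors' log2 group means fell by at least 1 (2-fold) in each of 3 steps, which were FG petals minus FW petals, FGD petals minus FG petals and FG leaves minus FGD petals. Of the 176026 probes on the array, 70270 reached the signal minimum, and 139 of these were members. The 3 step differences themselves chose the members, so their sizes are given below as a description. None of the 139 is named in the files or tables used here, so each is called by its probe ID. Probe sequences and annotations of these members were not used here.

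The plants were chrysanthemum (Chrysanthemum morifolium) cultivars. Feeling Green (FG) has green petals, and Feeling White (FW, white petals) and Feeling Green Dark (FGD, dark green petals) are bud sports of FG, that is, lines kept from a shoot that changed on the parent plant. Total RNA came from the petals of FW, FG and FGD, taken from ray florets when the outermost ones began to open, and from mature FG leaves. There were 3 samples in each of these 4 groups, from plants grown in a greenhouse in natural daylight, with no treatment, and each was hybridized to 1 single-colour array as a biological replicate. The leaves came from the parent cultivar alone, so the third step compares different organs as well as different cultivars. The order of the groups is that of the chlorophyll (Chl) content that the study gives for open flowers and leaves, and Chl itself is not among the values analysed here.

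Chls are the magnesium-containing pigments that capture light in chloroplasts. Young petals of many species hold some Chl and lose it as the flower opens, through less synthesis, through breakdown, or through both. Breakdown begins when STAY-GREEN (SGR, Mg-dechelatase) removes magnesium, after which pheophytinase (PPH), pheophorbide a oxygenase (PaO) and red Chl catabolite reductase (RCCR) act in turn. A gene with the profile selected here is expressed most where Chl is lowest and least in the greenest tissue. In whole petals and leaves, fewer cells of a type and less RNA per cell cannot be told apart.

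Levels are given as log2 signal relative to the 75th percentile of the same array, which is 0 on this scale, and differences are on the log2 scale. That percentile lay between 308 and 347 signal units on the petal arrays, against 188 to 209 on the leaf arrays. Between 63.2% and 69.6% of probes were well above background on an array, and 0 spots were saturated. The number of arrays, 3 per group, limits the precision. The 12 arrays were on 3 slides. Slide 1 held all FG petal arrays and FW petal 1, slide 2 held FW petals 2 and 3 with FGD petals 1 and 2, and slide 3 held FGD petal 3 with all leaf arrays, so FG and FGD petals shared no slide.

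The labelled order was first compared with 4 genes of Chl biosynthesis, a pathway that is active in green tissue. The study singled these genes out on the same arrays for following Chl content, so their order is no independent check of the labels. CHLH, a subunit of Mg-chelatase, averaged 0.63 ± 0.19 in FW, 2.67 ± 0.22 in FG and 3.69 ± 0.13 in FGD petals, and 6.24 ± 0.18 in leaves (log2 level, SD, n = 3 each). CRD, the Mg-protoporphyrin IX monomethylester cyclase, averaged 2.45 ± 0.26, 5.47 ± 0.13, 6.33 ± 0.05 and 8.39 ± 0.11 in the same order. HEMA1, a glutamyl-tRNA reductase, and PORC, a protochlorophyllide oxidoreductase, were also higher in each greener group, with leaf means of 2.33 ± 0.21 for HEMA1 and 7.65 ± 0.08 for PORC. All 4 probes passed limma's test in all 3 steps. In the step to FGD petals their adjusted p-values were 0.00072, 0.00084, 0.00090 and 0.044 for CHLH, CRD, HEMA1 and PORC. None of the 4 passed in that step once the slide was a block (adjusted p of 0.15, 0.24, 0.24 and 0.91), and PORC also lost its call with the replicate block (adjusted p = 0.067) and in 11 other settings.

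**Figure D1:**
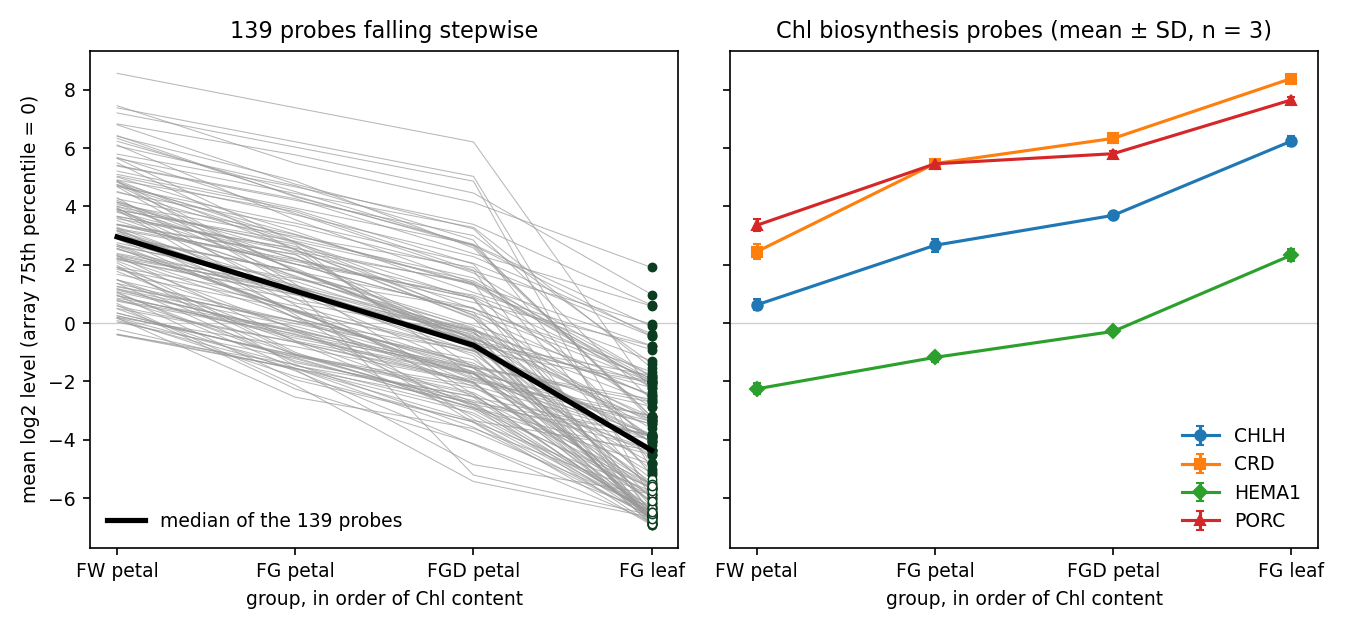
Left, mean log2 level (array 75th percentile = 0) of each of the 139 probes in the 4 groups, in order of Chl content, with the median of the probes in black. Leaf points are open for the 58 probes with 0 leaf arrays well above background. Right, the same scale for CHLH, CRD, HEMA1 and PORC (points, mean; bars, SD, n = 3). The median of the 139 probes went down at every step, and the 4 Chl biosynthesis probes went up.

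The fall was smaller between petals and larger towards the leaf. The median step of the members was -1.53 for FG petals minus FW petals, -1.68 for FGD petals minus FG petals and -3.28 for leaves minus FGD petals. Over all 70270 probes the medians were -0.11, 0.01 and -0.11. The step to the leaf was the largest fall in 103 of the 139 members, the step from FW to FG petals in 17, and the step from FG to FGD petals in 19. The petal steps had no fixed ratio: the second was the larger fall in 77 members and the first in 62, and the pair differed by at most 0.3 in 55 members. Every step reached -1.5 in 46 members and -2 in 11.

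The petal steps were the scarcer ones. Among all probes passing the signal minimum, 2535 fell by at least 1 between FW and FG petals, 2880 between FG and FGD petals and 13209 between FGD petals and leaves. A total of 463 probes fell in both petal steps. Of those 463, 139 also fell in leaves, which makes them the members, 116 changed by less than 1 in either direction, and 208 were at least 1 higher in leaves than in FGD petals. By that limit more of the 463 were higher than lower in leaves, but nothing is concluded from this. The 463 were chosen for a low FGD petal level, and the leaf step subtracts that same level, which favours higher values. No share of all probes at least 1 higher in leaves is given here for comparison. In the leaf step 139 of the 463 fell by at least 1, as did 13209 of all 70270 probes passing the signal minimum. In the opposite direction, 280 probes rose by at least 1 in each of the 3 steps.

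Many members were near the limit of detection in leaves. On all 9 petal arrays 136 of the 139 were well above background, and on all 12 arrays 60 were. In leaves, 58 members (41.7%) were well above background on 0 of the 3 arrays, 10 on 1 array and 11 on 2 arrays, whereas 1.47% of all 70270 probes were above it on 0 leaf arrays. The rule asks for the lowest level in leaves, and petal arrays alone can carry a probe over the signal minimum. This contrast is thus in part set by the choice of the members. The scanner's own error was 10% of the signal for the median member in each petal group and 21.8% in leaves. For a group with no array well above background only a bound can be given, and it is computed from the means of log2 levels with each dim array raised to the lowest level that was well above background on it. By that measure the 58 members were at least 18.4-fold to at least 3567-fold higher in FW petals than in leaves, with a median bound of 97.9-fold. The 60 members measured on all arrays were 9.83-fold to 1930-fold higher in FW petals than in leaves, with a median of 56.9-fold. In the 136 members measured on all petal arrays, the level in FW petals was 4.37-fold to 157-fold that in FGD petals, with a median of 11.3-fold. With the bounds in place of the measured levels, 132 of the 139 still fell by at least 1 in each step.

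**Figure D2:**
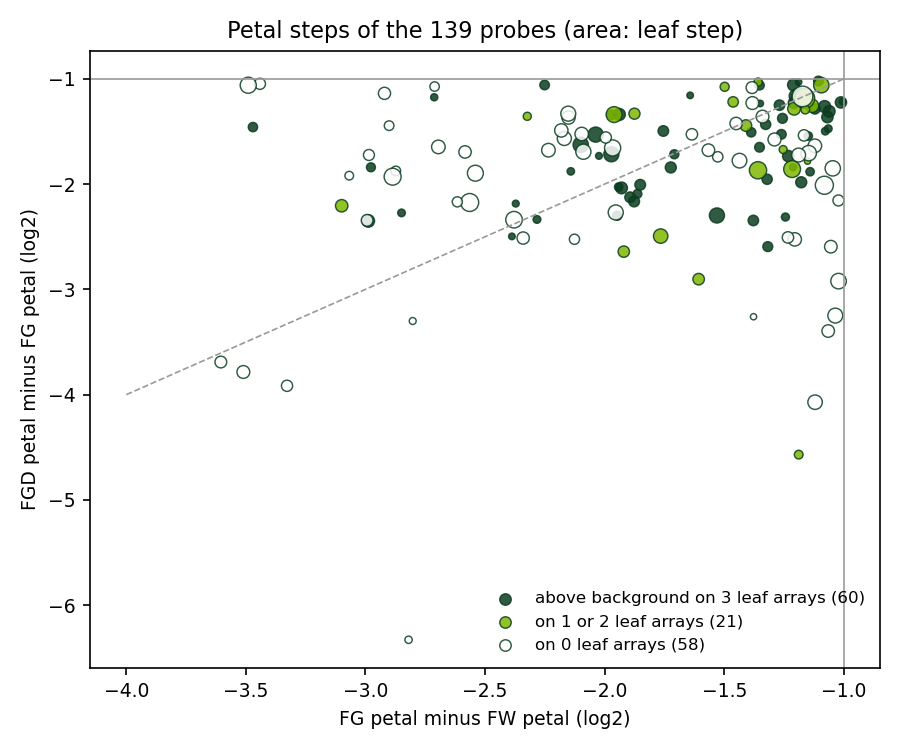
Each point is 1 of the 139 probes, at its FG petal minus FW petal difference (horizontal, log2) and its FGD petal minus FG petal difference (vertical, log2). The point's area grows with the fall from FGD petals to leaves, its fill gives the number of leaf arrays well above background, solid lines mark the limit of -1 and the dashed line marks equal steps. Most points lie in the corner near the limit, and open points (0 leaf arrays) are spread over the whole range of petal steps. Their median first step was -2.09, against -1.37 for probes above background on all leaf arrays. The median second steps were -1.73 and -1.54.

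The brightest member was PD0028_038490, with a mean signal of 51111 over the 12 arrays. Its log2 level was 8.18, 8.81 and 8.70 in FW, 7.41, 7.75 and 6.99 in FG and 6.21, 6.20 and 6.22 in FGD petals, and -2.10, -1.07 and -3.89 in leaves. No arrays of neighbouring groups overlapped, the FGD petal arrays were almost equal (SD 0.01), and the leaf arrays spread widely (SD 1.43). It had the largest fall from FW petals to leaves among the members measured on all arrays, 1930-fold, of which the petal steps took only -1.18 and -1.17. A loss of this size between organs was paired with moderate differences between the 3 cultivars' petals.

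The next brightest pair of members followed the same course. PD0028_064541 had 7.05, 7.63 and 7.47 in FW, 6.25, 6.55 and 5.85 in FG and 4.93, 4.98 and 5.18 in FGD petals, and -4.80, -3.54 and -6.70 in leaves, where 1 of the 3 arrays was well above background. PD0028_037791 had 6.82, 7.48 and 7.32 in FW, 6.07, 6.39 and 5.63 in FG and 4.78, 4.82 and 5.0 in FGD petals, and no leaf array well above background, so it was at least 3567-fold higher in FW petals than in leaves. In all 3 of these probes FW petal 1 was the lowest FW array, FG petal 2 the highest FG array and FG petal 3 the lowest. The petal steps were -1.16 and -1.19 in PD0028_064541 and -1.17 and -1.17 in PD0028_037791. Whether these probes lie on related transcripts was not tested.

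PD0028_062342, the fourth by signal, kept the most leaf signal of these 4. It had 7.57, 7.28 and 7.5 in FW, 5.45, 5.47 and 5.53 in FG and 3.90, 4.21 and 4.31 in FGD petals, and 2.10, 1.96 and 1.66 in leaves. Its FW to leaf ratio was 46.7-fold, and its largest fall within petals was between FW and FG petals (-1.97). Mean signals of the 139 members ranged from 100 to 51111 with a median of 935. 

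The other large falls among members measured on all arrays belonged to PD0028_148952, PD0028_040141, PD0028_115331, PD0028_081878 and PD0028_010498, with FW to leaf ratios of 859, 795, 742, 689 and 665. PD0028_148952 had 6.65, 6.20 and 6.44 in FW, 4.29, 4.24 and 4.46 in FG and 2.42, 2.83 and 2.85 in FGD petals, and -3.57, -3.25 and -3.14 in leaves. PD0028_115331 and PD0028_081878 had nearly the same steps as PD0028_148952 (-1.97, -1.72 and -5.85 for PD0028_115331, and -2.04, -1.53 and -5.86 for PD0028_081878, against -2.10, -1.63 and -6.02). In these 3 probes the first petal step was larger than the second. PD0028_040141 had the reverse order within petals, with -1.53 from FW to FG petals and -2.30 from FG to FGD petals, and its SD over the FG petal arrays was 0.04. PD0028_084393, outside this ranking because no leaf array was well above background, was at least 1667-fold higher in FW petals than in leaves.

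In other members even the smallest step was large. PD0028_010498 had the largest smallest step, -2.35, beside -2.99 in the first step and -4.04 in the leaf step, with 6.02, 4.92 and 5.54 in FW, 2.71, 1.86 and 2.95 in FG and -0.19, 0.39 and 0.26 in FGD petals, and -4.17, -3.48 and -4.0 in leaves. The steps were close to equal in PD0028_024123, which fell by 1.95, 2.30 and 2.15, and in PD0028_098533, which fell by 1.86, 2.09 and 1.97. PD0028_003303, PD0028_025457 and PD0028_063533 had petal steps between -1.88 and -2.16, with larger falls of 3.53, 2.89 and 3.01 to the leaf. PD0028_098533 had 5.13, 4.84 and 5.04 in FW, 3.08, 2.55 and 3.8 in FG and 1.12, 0.89 and 1.15 in FGD petals, and -1.02, -1.65 and -0.09 in leaves. Its leaf arrays all lay below the lowest FGD petal array, and the spread was widest in FG petals (SD 0.63) and leaves (SD 0.79).

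**Figure D3:**
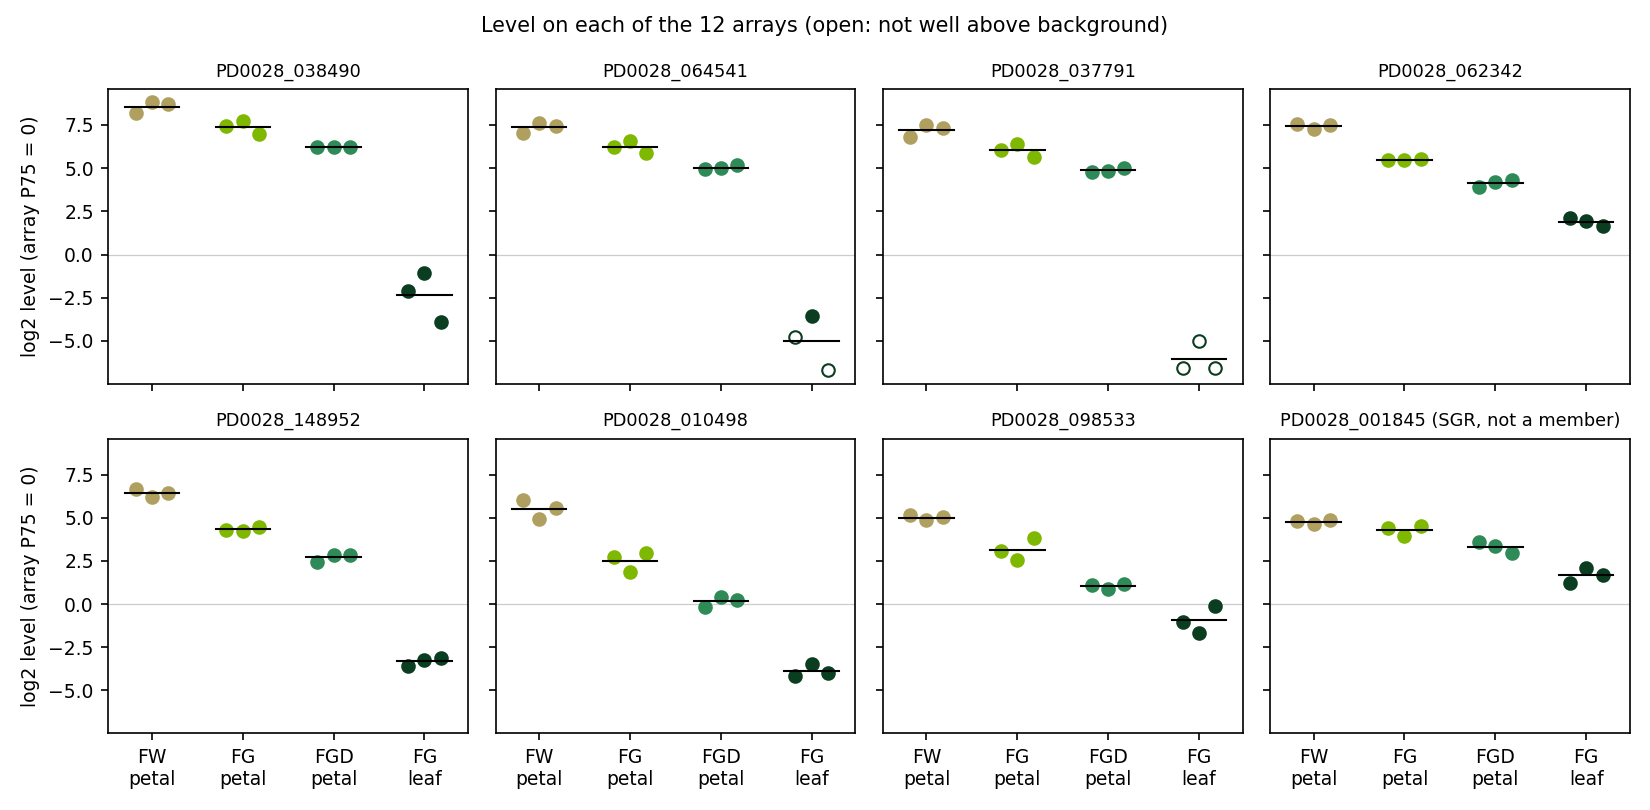
Log2 level (array 75th percentile = 0) on each of the 12 arrays for 7 members and for SGR, which is not a member. Points are arrays, lines are group means, and open points were not well above background. The 3 brightest members dropped mainly between FGD petals and leaves, while PD0028_098533 dropped by similar amounts at each step (1.86, 2.09 and 1.97).

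Some members had petal profiles close to those of other members. After each probe was centred on its own mean over the 9 petal arrays, 93 of the 136 members measured on all of these arrays had at least 1 other member within 0.3 on every array. These profiles include the steps that chose the members, many of which lie near the limit, so such closeness in part restates the rule, and no share for other probes was computed. Linking such pairs gave 16 sets. The largest was a chain of 54 probes, which included the 4 brightest and whose ends differed by more than 0.3. Next in size was a set of 5, PD0028_003303, PD0028_006430, PD0028_024123, PD0028_025457 and PD0028_098533, with steps of -1.95 to -1.86 between FW and FG petals and -2.30 to -2.03 between FG and FGD petals. In leaves the members of that set fell by between 1.80 and 3.53, so a shared petal profile went with unequal leaf steps. Over all 12 arrays only 9 of the 60 fully measured members had such a partner, 5 of them in 1 set. Probes of 1 transcript, or of near-identical gene copies, would give such sets, and this was not tested.

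The limit of -1 had no gap around it. The 4 members just inside were PD0028_110235, whose last step of -1.0 lay between levels that were mostly below background, PD0028_013026 (first step -1.01), PD0028_174572 (first step -1.01) and PD0028_099693 (second step -1.02). PD0028_099693 had 3.37, 1.99 and 2.53 in FW petals and 1.64, 1.56 and 1.37 in FG petals, so its first step rested much on FW petal 1. The 4 probes just outside were PD0028_101096 and PD0028_158394, each short by under 0.01 in the second step, and PD0028_082318 and PD0028_062012, each short by under 0.01 in the first. PD0028_158394, with a mean signal of 25887, would have been the second brightest member. Its steps were -1.35, -0.99 and -3.27.

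The agreement of arrays within a group differed between groups. The median SD of the members was 0.23 for FW, 0.38 for FG and 0.21 for FGD petals, and 0.35 for leaves, against 0.12, 0.10, 0.12 and 0.14 over all probes tested. Part of this spread was common to the members. On FG petal 3 the members lay a median of 0.27 above their FG petal mean, and 105 of 139 had their highest FG level there, as did 35.1% of all probes. On FG petal 2 they lay a median of 0.29 below it (deviation -0.29), and 101 of 139 had their lowest FG level there, as did 35.4% of all probes. FG petal 1 was in between, with a median deviation of 0.03. In FW petals, 92 of 139 members were highest on FW petal 1 (median deviation 0.17) and 115 were lowest on FW petal 2 (median deviation -0.21), against 36.4% and 34.3% of all probes.

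Other gene groups moved with these arrays. The 280 probes that rose stepwise had a median deviation of -0.34 on FG petal 3, 0.23 on FG petal 2, -0.20 on FW petal 1 and 0.27 on FW petal 2, each opposite in sign to that of the members. The 16 Chl biosynthesis probes passing the signal minimum did the same with smaller values, -0.12 on FG petal 3, 0.07 on FG petal 2, -0.19 on FW petal 1 and 0.14 on FW petal 2. On FG petal 3, 1 of these 16 probes lay above its FG petal mean, and on FG petal 2, 14 of 16 did. By the medians of these 3 sets of probes, FG petal 3 lay towards FW petals and FG petal 2 towards FGD petals. In FGD petals and leaves the median deviations of the members lay within 0.09 of 0. The 3 brightest members ran against the majority, since they were lowest on FG petal 3. The part of flower age or Chl content of the single samples in this spread was not tested.

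**Figure D4:**
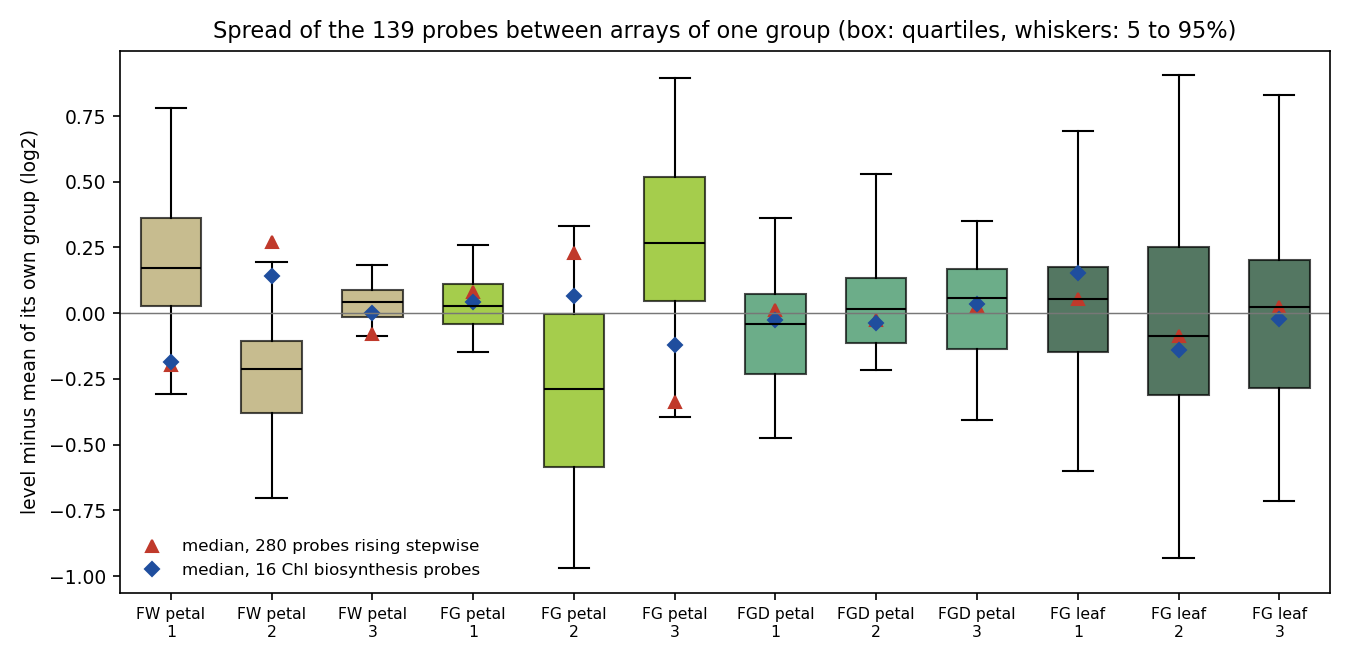
Level of each probe minus the mean of its own group (log2), by array, in the 4 groups. Boxes give the median and quartiles of the 139 members and whiskers their 5th to 95th percentiles. Triangles are medians of the 280 probes rising stepwise and diamonds are medians of 16 Chl biosynthesis probes. On FG petal 2 and FG petal 3, and on FW petal 1 and FW petal 2, the boxes lie on the other side of 0 from both symbols.

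Single members showed how far the FG petal arrays could differ. Members ranged over a median of 0.76 between their lowest and highest FG petal array, against 0.19 for all probes tested, and 43 of 139 ranged over more than 1. PD0028_102724 had -2.05, -4.42 and -0.30 in FG petals, a range of 4.11, between FW petals at 1.40, -0.09 and 0.54 and FGD petals at -4.04, -4.11 and -4.24. FG petal 3 of this probe was just below the lowest FW petal array, and FG petal 2 was below all FGD petal arrays. PD0028_024498 had 2.83, 1.82 and 3.47 in FG petals and 4.62, 3.10 and 3.97 in FW petals, so that the highest FG array exceeded the lowest FW array. Both changed more between arrays of FG petals than the limit of the rule.

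Neighbouring groups seldom overlapped in the members. In 132 of 139 the arrays of each group lay wholly below those of the group before it at all 3 steps, which held for 4.39% of all probes tested. The 7 members with an overlap at some step were PD0028_024498, PD0028_045690, PD0028_078952, PD0028_098013, PD0028_099559, PD0028_102724 and PD0028_131286. PD0028_098013 was the only one to overlap at the leaf step, with -4.94, -1.65 and -5.11 in leaves. By limma's moderated test with Benjamini-Hochberg adjustment, 133 members were called lower in FG than in FW petals, 131 in FGD than in FG petals and all 139 in leaves than in FGD petals. Over all probes tested, 30.4% were called lower in the first step, 14.2% in the second, 43.2% in the third and 1.83% in all 3, which 128 members were. With the slide as a block 34 members were called lower in the second step, as were 1304 of all 70270 probes. With that block 33 members were called in all 3 steps, for which no share of all probes is given here. FG and FGD petals shared no slide. Since the same differences chose the members, nothing follows from these counts. The 11 not called in all 3 steps included PD0028_038490 and PD0028_064541, whose leaf arrays had SDs of 1.43 and 1.59. The fit shares 1 spread over the 4 groups.

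Arrays left out of the step differences gave a further view, though not a fully separate one. The step limits were applied to 8 arrays, with the arrays of 1 replicate number left out of every group. The chosen probes were then read in the 4 arrays left out. The signal minimum was still taken over all 12 arrays, and the arrays left out lay on the same slides as those used. Differences between slides are therefore not set apart here. Without replicate 1, 137 probes were chosen. Of these, 133 fell in each step in the arrays left out, as did 10529 of all 70270 probes tested. By at least 1 in each step, 99 (72.3%) fell, against 0.278% of all probes tested. Without replicate 2, 143 were chosen, and 136 fell in each step, as did 11751 of all probes. By at least 1, 84 (58.7%) fell, against 0.206%. Without replicate 3, 155 were chosen, and 141 fell in each step, as did 10175 of all probes. By at least 1, 65 (41.9%) fell, against 0.147%. The share was lowest for replicate 3, where the median step from FW to FG petals was -1.13 in the arrays left out and -1.56 in the 8 used. In the same arrays the median step from FG to FGD petals was larger, -2.08 against -1.59. The FG petal array left out there, FG petal 3, was the one on which most members were high. Between 118 and 122 of the chosen probes were among the 139 members.

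**Figure D5:**
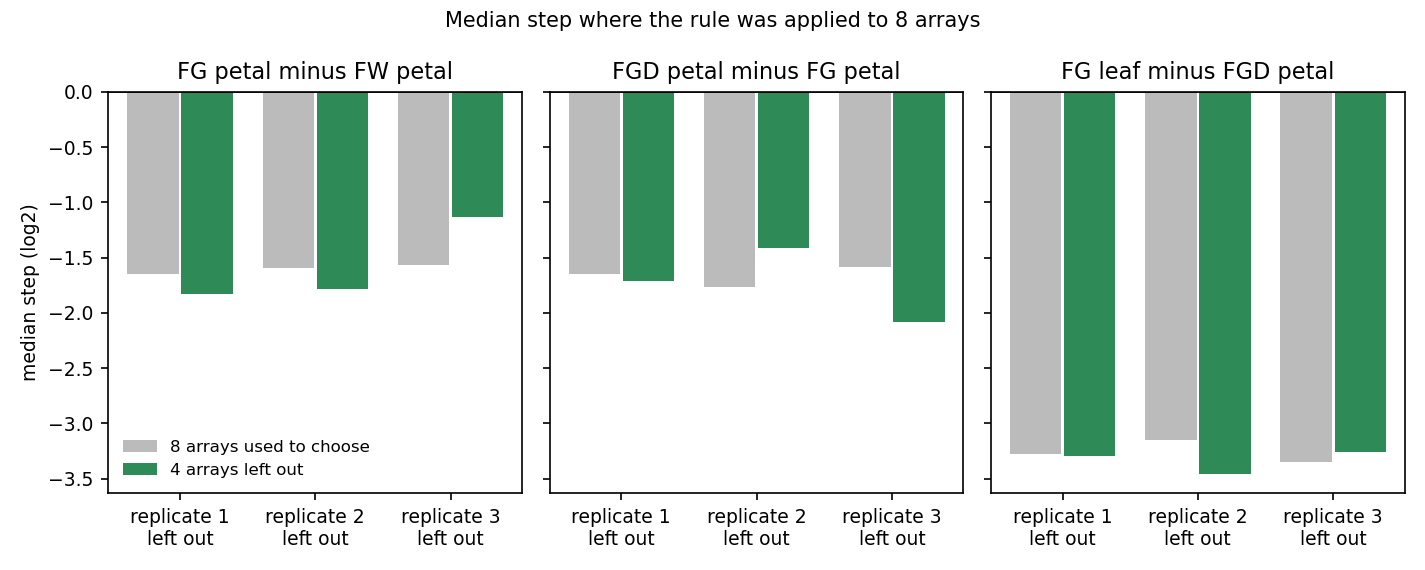
Median step (log2) of the probes chosen by the step limits on 8 arrays, in the 4 arrays left out (green) and in the 8 used (grey), for each replicate number left out and each step. With replicate 3 left out, the first step was smaller in the arrays left out (-1.13) and the second larger (-2.08). The step to leaves ranged from -3.46 to -3.26 in the arrays left out.

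Within single slides the median differences of the members lay near those over all arrays for the 3 comparisons that a slide allowed. On slide 1, FG petals minus FW petal 1 had a median of -1.75 over the members, and 134 of 139 were at or below -1, as were 4.42% of all probes tested. On slide 2, FGD petals minus FW petals, with 2 arrays each, had a median of -3.44, and 137 of 139 were at or below -2, as were 1.98% of all probes. On slide 3, leaves minus FGD petal 3 had a median of -3.32, and 134 of 139 were at or below -1, as were 19.2% of all probes. The members met these 3 limits together in 128 of 139 cases, and 0.482% of all probes did. The arrays are those that chose the members, so nothing is read from these counts. Between FG and FGD petals no slide gave a value. With the slide as a block in the fit, the median of that step was -1.45, and 109 members fell by at least 1 in it. In every step of that fit, 100 of the 139 fell by at least 1. No share of all probes is given for the counts of that fit, and nothing is read from them either. FW petal 1 on slide 1 lay a median of 0.26 above the FW petal arrays of slide 2 over the members, and FGD petal 3 on slide 3 lay 0.09 above those of slide 2.

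Genes of Chl metabolism were compared next, from the list of 31 probes that the study made, of which 25 passed the signal minimum and none was a member. Of the 16 tested probes for Chl biosynthesis, 13 were higher and 0 lower in FG than in FW petals, 7 higher and 1 lower in FGD than in FG petals, and 11 higher and 3 lower in leaves than in FGD petals. The median steps were 1.20, 0.35 and 0.53. With the slide as a block, 0 of the 16 were called in either direction in the step from FG to FGD petals. Of the 5 probes of the Chl cycle, 2 were higher and 2 lower in FG than in FW petals, 0 higher and 2 lower in FGD than in FG petals, and 4 higher and 0 lower in leaves than in FGD petals. NYC1a, a Chl b reductase, fell in both petal steps (-1.16 and -0.65, limma, adjusted p of 2.6e-06 and 0.00040), the second short of the members' limit. It was 1.92 higher in leaves than in FGD petals. A second probe for this enzyme, NYC1b, did not pass in the first step (-0.17, limma, adjusted p = 0.42). It fell by less in the second (-0.52, adjusted p = 0.038) and was 3.40 higher in leaves. Both are named here after their values were seen. Of the 25 tested Chl probes only 1, SGR, fell in every step at any size, as did 16.0% of all probes tested.

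SGR came closest to the members among the genes of Chl breakdown. It had 4.78, 4.63 and 4.84 in FW, 4.43, 3.96 and 4.50 in FG and 3.60, 3.35 and 2.97 in FGD petals, and 1.21, 2.07 and 1.71 in leaves. The FW and FG petals were the nearest neighbours, and no arrays of neighbouring groups overlapped. Its steps were -0.46 (limma, adjusted p = 0.12), -0.99 (adjusted p = 0.0099) and -1.64 (adjusted p = 5.7e-05), so the first did not pass and the second was not called with the slide as a block (-0.77, adjusted p = 0.37). Over the FG petal arrays SGR was high on FG petal 3 and low on FG petal 2, as most members were.

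The later enzymes of breakdown had other profiles. PPH averaged -0.04 ± 0.23 in FW, 0.19 ± 0.15 in FG and -0.21 ± 0.17 in FGD petals, and 0.86 ± 0.16 in leaves (SD, n = 3 each), and only the leaf step passed (1.06, limma, adjusted p = 3.8e-05). PaO averaged 2.24 ± 0.08, 3.08 ± 0.13, 2.91 ± 0.19 and 4.59 ± 0.17 in the same order, with higher levels in FG than in FW petals (0.83, adjusted p = 0.00027) and in leaves than in FGD petals (1.69, adjusted p = 2.5e-07). RCCR averaged 2.52 ± 0.25, 3.93 ± 0.08, 3.72 ± 0.09 and 3.58 ± 0.08, and was higher in FG than in FW petals (1.41, adjusted p = 7e-06) with no call in the other steps. HEMA2, a second glutamyl-tRNA reductase, had -0.74 (adjusted p = 0.053) and -1.09 (adjusted p = 0.018, and 0.62 with the slide as a block) within petals and was 2.42 higher in leaves than in FGD petals (adjusted p = 1.8e-05). Its FW petal arrays (1.12, 0.92 and 0.35) overlapped its leaf arrays (1.51, 0.81 and 1.82).

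The transcription factor probes that the study listed were also read. It chose them on these same arrays for large differences between FW and FG or between FGD and FG petals, so their directions are no independent evidence. Of the 59 probes on both lists, 37 passed the signal minimum and none was a member. In the first step 6 were called lower and 22 higher, in the second 8 lower and 10 higher, and in the third 19 lower and 11 higher, with median steps of 3.99, 0.52 and -0.81. The 5 of them that fell in every step at any size were all probes annotated as mini zinc finger 2 (MIF2), named here after their values were seen. Over all probes tested, 16.0% fell in every step. All 5 were called lower in the second step and 4 of them in the leaf step. Each had 0 leaf arrays well above background, so their leaf falls are uncertain in size. PD0028_043321, the one not called in the leaf step, also had 0 such FGD petal arrays. In the first step none of the 5 passed, with differences of -0.52 to -0.28 and adjusted p-values of 0.18 to 0.58. Another listed MIF2 probe, PD0028_041425, missed the signal minimum. Its means were -1.41 in FW, -1.26 in FG and -7.36 in FGD petals, and -6.82 in leaves, so it did not fall in every step.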

How the data were processed

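The authors labelled total RNA with Cy3, hybridized it to a custom oligonucleotide array and read it with Agilent Feature Extraction. Its version was 10.10.1.1 per the file headers and 10.7.1.1 in the submitters' processing notes, and the study's methods state an earlier one. The deposited scanner values are spot intensity (processed signal, already background-corrected by that software). The deposited series table holds the authors' log2 values, and its group differences equal those of log2 processed signal minus each array's 75th percentile to within 3.08e-05. All 12 of its sample columns were used.

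The rule was applied to the authors' log2 table. Levels, SDs and tests came from the scanner values, with control spots left out (4854 per array) and outlier spots (7 to 37 per array, 0 of them in members) left out of the fits. limma 3.58.1 (R 4.3.3) was fitted to the 4 groups and 70270 probes, with Benjamini-Hochberg adjustment within each step and calls at 0.05. It was also run on simulated data with independent noise on each array. Such data hold no differences shared by the probes of an array or slide, so nothing is concluded from that run. Replicates are the submitters' biological triplicates, and slides were read from the file headers. Alternatives were other scalings, filters, blocks and left-out arrays.

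The members and lists were chosen with earlier results of these data known. Named probes are the 6 largest falls from FW petals to leaves, the 6 largest smallest steps, the 4 highest signals, the 4 just inside and 4 just outside the limit, and SGR, PPH, PaO, RCCR and HEMA2. The rankings of falls and of smallest steps used only members well above background on all 12 arrays. Others are named where a count or range turned on them, after their values were seen. A planned background correction on mean signals was replaced by one on median signals (normexp, offset 50), since the mean signal was not among the scanner columns used here.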

Additional observations from a re-analysis of the deposited data

How the results depend on the processing

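The rule gave 139 probes with the authors' table and the same 139 with the scanner values. It gave 147 with quantile normalization and 144 with median scaling (138 shared with the 139 in each), 169 without the signal minimum, 132 with the background bounds, whether set by group or, as added after seeing the data, by array, and between 128 and 161 when 1 array or 1 replicate number was left out. Of the 139, 90 were found whichever single array was left out. The number of members moved by over 1.5 times in 4 settings: 69 (68 shared) with normexp on the median signal, chosen after seeing the data, 62 with a signal floor of 100, 258 with a step limit of -0.8 and 46 with a limit of -1.5. A floor and an offset shrink differences between dim signals by construction. The planned normexp on the mean signal was not run.

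With the slide as a block, 13035 probes were called lower in FG than in FW petals (21392 without it), 1304 in FGD than in FG petals (9973 without it) and 33 members in all 3 steps (128 without it). FG and FGD petals share no slide, so that step is then estimated through the FW and FGD arrays of slide 2. Leaving out 1 array gave 15868 to 22658 probes called lower in the first step, 6396 to 11063 in the second, 28759 to 30646 in the third and 106 to 132 members called in all 3. The second step lost most calls without FG petal 1 (6396) and without FG petal 3 (6448). With the replicate block, 19940, 8950 and 29915 probes and 126 members were called. For members called in all 3 steps, no share of all probes is given under these settings. Nothing is read from those counts of members. Deviations of arrays with the same replicate number correlated between -0.36 and 0.39, and those of arrays on the same slide between -0.42 and 0.44. Whether samples with the same number shared anything else was not tested. The other settings kept each of these counts within 1.5 times. What depth limits here is the leaf: 58 members had only a bound there.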
